A study of Capsella grandiflora and Capsella rubella and Capsella orientalis with 27 samples.

Results

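The change in gene expression from dividing to expanding flower buds was set against itself in a self-fertilising and an outcrossing species of Capsella. For each gene, the log2 difference between expanding and dividing buds was taken in C. rubella and in C. grandiflora, and the C. grandiflora difference was subtracted from the C. rubella one. The result, the difference in bud-stage change, is positive where the gene moved further upward, or less far downward, in C. rubella. It used 12 of the 27 libraries of the series, 3 from each of 4 groups: expanding and maturing buds of C. rubella, its dividing buds, expanding and maturing buds of C. grandiflora, and its dividing buds. The series also holds C. orientalis, another self-fertilising species, and seedlings 10 days old of all 3 species. The labels name species and stage for each library and give no genotype, accession, treatment or plant of origin. A species was therefore sampled as an unnamed source, and whether replicates came from separate plants is not given. The p-values thus measure the spread between libraries of a group, estimated over all 27, and that spread may be technical.

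Flower buds first grow mainly by cell division and later mainly by cell expansion, while anthers form pollen and petals reach their final size. In C. rubella, selfing is accompanied by smaller petals and less pollen than in C. grandiflora, a combination known as the selfing syndrome. A subtraction of this kind removes any factor that multiplies a gene's count in one species to the same degree at both stages, such as reads lost because a sequence differs from the gene models. What remains is a gene whose course between the bud stages, as sampled, differs between the species. The library titles give no bud size or age. A difference between the species in the buds collected under one stage name is thus confounded with species and was not tested. In bulk buds, a smaller share of cells of one type and less RNA per cell cannot be told apart.

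The 12 bud libraries held between 21216706 and 40909319 reads on genes, with a median of 32814912. Depth varied within groups, as in C. grandiflora expanding buds with 40909319, 27933066 and 27488832 reads. Reads outside genes made up 4.61% to 5.69% of the reads tallied in a library and reads with several alignments 4.03% to 5.09%. No unaligned reads were tallied, so the share of reads that aligned in each species is not known. Of 26521 gene models, 23186 passed the filter on low counts and were tested. The gene models carry identifiers without names, so that genes are described by their course and not by their function. None of the 32 lists of cell cycle, cell wall, pollen, hormone and other genes could be matched to an identifier, and the labelled stages could not be checked against named markers.

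The bud-stage change differed between the species for 23% of the genes tested, and it was most often weaker in C. rubella. edgeR's quasi-likelihood test called 5330 genes at a Benjamini-Hochberg adjusted p under 0.05 among the 23186. In 3373 of them (14.5% of genes tested) the difference was positive and in 1957 (8.44%) it was negative. Among differences of at least 2-fold, 1567 genes (6.76%) were positive and 692 (2.98%) negative, and among those of at least 4-fold 730 and 259. The median absolute difference of the called genes was 0.83 on the log2 scale. In 4817 of the called genes (90.4%) all 9 library differences of one species lay beyond all 9 of the other, against 33% of all genes tested, called ones included. The calls come from the same libraries, 3 per group, so this describes the called genes and adds no separate support.

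Most genes nevertheless kept their direction. A stage change was called in 16702 genes of C. grandiflora (72% of those tested) and in 14902 of C. rubella (64.3%). Both species had a called change in 12980 genes, of the same sign in 12678 and of opposite sign in 302. Across the 23186 genes, which are not independent replicates, the changes of the species had a Pearson r of 0.87 and a Spearman rho of 0.81. The balance of large changes was uneven. Genes at least 2-fold higher in expanding buds numbered 4419 in C. grandiflora and 4060 in C. rubella (19.1% and 17.5% of genes tested), while genes at least 2-fold lower there numbered 3528 and 2049 (15.2% and 8.84% of genes tested).

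**Figure D1:**
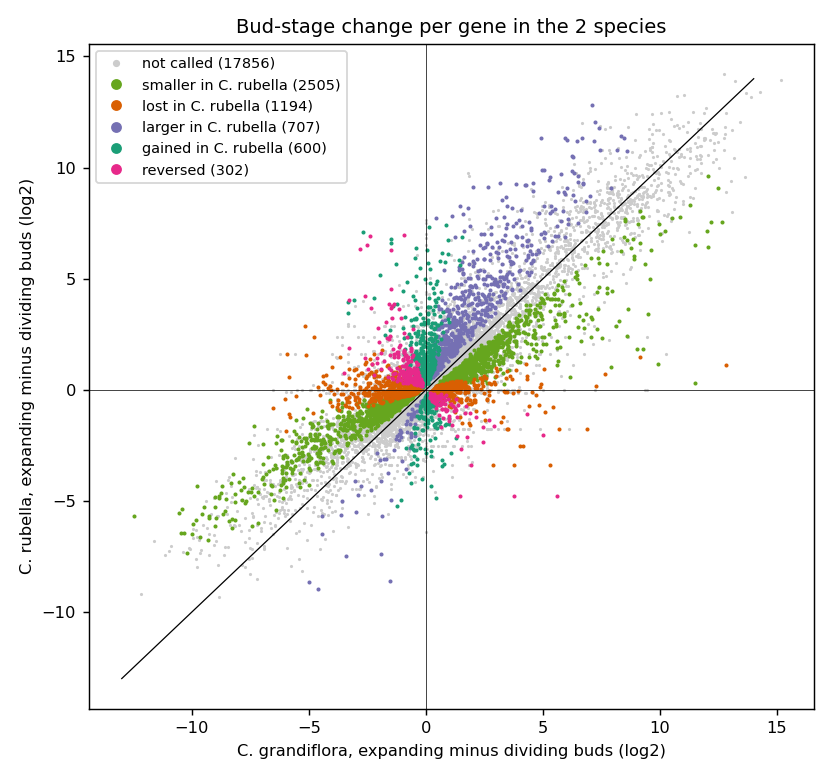
Each point is a gene, placed by its change from dividing to expanding buds in C. grandiflora (horizontal, log2) and in C. rubella (vertical, log2), with the diagonal marking equal change. The 2505 genes with a smaller change in C. rubella lie between the diagonal and the horizontal axis, the 302 reversed genes fill the quadrants of opposite sign, and 22 called genes with a called change in neither species are not drawn.

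The 5330 genes were sorted by the stage changes called in each species. A change was termed smaller or larger where both species had it with the same sign, lost where it was called in C. grandiflora alone, gained where it was called in C. rubella alone, and reversed where the signs opposed. By this rule 2505 changes (47% of called genes) were smaller in C. rubella, 1194 (22.4%) were lost, 707 (13.3%) larger, 600 (11.3%) gained and 302 (5.67%) reversed. In the remaining 22 genes neither species alone had a called change. A change termed lost or gained is one that missed the threshold in a species, which does not show that it was 0. The words describe C. rubella relative to C. grandiflora and carry no order in time, since either species may have changed. The values that follow in each class come from the libraries that chose it, and are descriptions.

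Smaller falls numbered 1375 genes and smaller rises 1130, an order that turned with RLE scaling (1205 and 1242) and DESeq2 (1432 and 1462). Their median log2 change from dividing to expanding buds was -1.48 in C. grandiflora and -0.76 in C. rubella. The median level over these genes, in CPM (read counts divided by the scaled size of the library), was 29.8, 29.4 and 29.1 in the C. grandiflora dividing libraries and 9.52, 10.1 and 9.08 in its expanding libraries. In C. rubella it was 25.6, 25.1 and 25.9 in dividing buds and 14.4, 13.95 and 14.2 in expanding buds. The libraries of the species did not overlap at either stage, and their gap was wider in expanding buds. There, 952 of the 1375 genes were called higher in C. rubella and 81 lower, whereas in dividing buds 581 were called lower and 300 higher. Over all genes tested, 30.2% were called higher and 29.5% lower in C. rubella expanding buds, and 24% higher and 27.7% lower in its dividing buds. This background moved with the scaling: in expanding buds 6998 genes were higher and 6832 lower, against 6147 and 7713 with RLE scaling and 6257 and 7822 with DESeq2. As a group these genes took 7.53% to 7.84% of reads on tested genes in C. rubella dividing buds against 9.05% to 9.68% in C. grandiflora, and 3.81% to 4.06% against 2.28% to 2.61% in expanding buds.

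Smaller rises, 1130 genes, differed mainly at the expanding stage. Their median log2 change was 1.68 in C. grandiflora and 0.90 in C. rubella. In dividing buds the median level was 13.97, 14.5 and 14.3 CPM in C. grandiflora and 15.1, 15.3 and 15.2 CPM in C. rubella. In expanding buds it reached 51.99, 47.8 and 53.2 CPM in C. grandiflora but 32.4, 34.9 and 33.9 CPM in C. rubella. Every C. rubella library lay slightly above every C. grandiflora library in dividing buds and well below it in expanding buds. Of these genes 921 were called lower in C. rubella expanding buds and 48 higher.

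Larger rises followed another course. The 645 genes of this class had a median log2 change of 3.26 in C. rubella and 1.55 in C. grandiflora, yet their level was lower in C. rubella at both stages. In dividing buds the median level was 1.29, 1.10 and 1.37 CPM in C. rubella against 4.22, 3.92 and 4.43 CPM in C. grandiflora. In expanding buds it was 14.8, 15.9 and 14.9 CPM against 19.9, 19.96 and 20.3 CPM. The steeper rise in C. rubella therefore started from a lower level and did not reach that of C. grandiflora. In dividing buds 552 of the 645 genes were called lower in C. rubella and 14 higher, and in expanding buds 318 were lower and 148 higher. Their share of reads was 0.619% to 0.679% in C. rubella dividing buds against 1.51% to 1.98% in C. grandiflora, and 3.51% to 3.94% against 5.61% to 6.04% in expanding buds. Larger falls were rare, with 62 genes and median log2 changes of -2.08 in C. rubella and -1.03 in C. grandiflora.

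**Figure D2:**
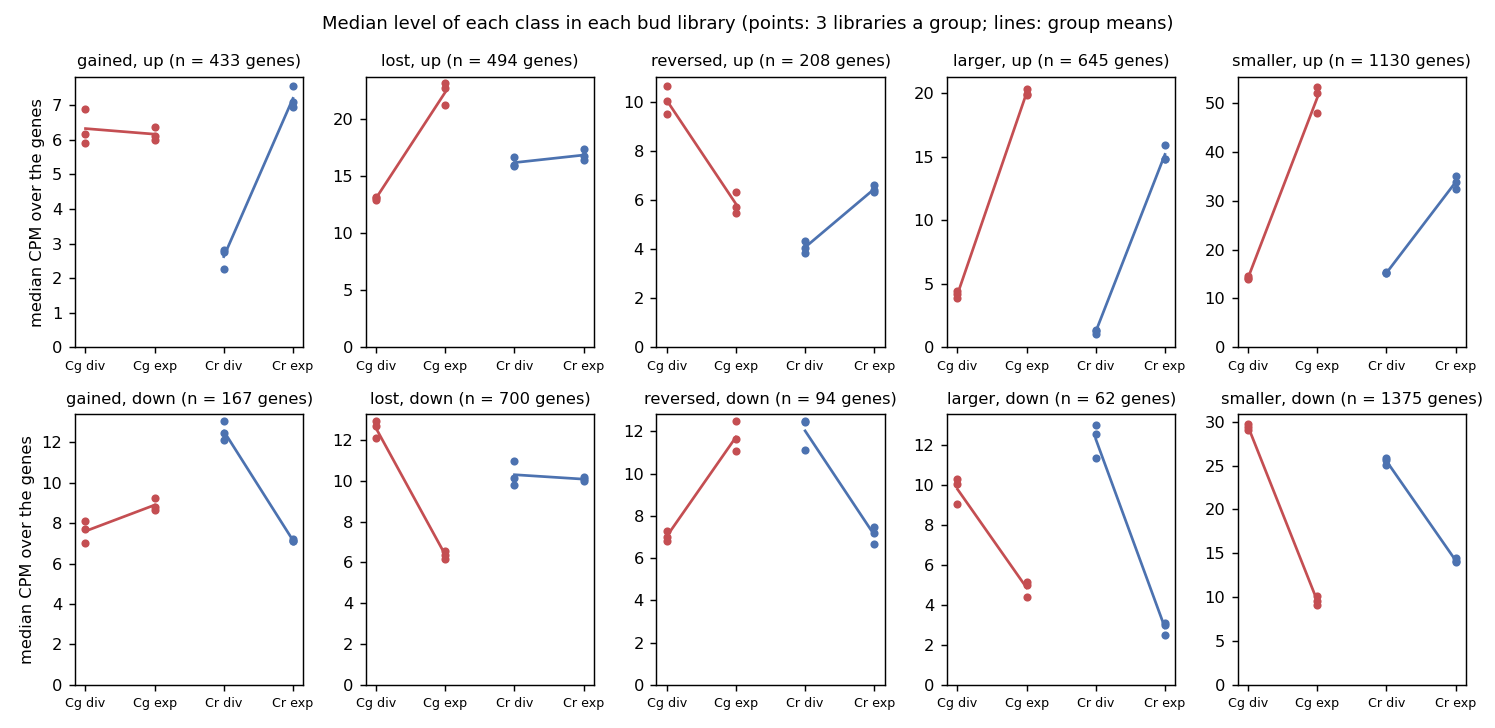
Each panel shows the median level over the genes of a class (CPM, linear axis from 0) in the 12 bud libraries, with C. grandiflora (Cg) in red and C. rubella (Cr) in blue, dividing (div) and expanding (exp) buds, points for libraries and lines between group means. In the larger, up panel C. rubella starts at 1.10 to 1.37 CPM and C. grandiflora at 3.92 to 4.43 CPM, while in the smaller, up panel both start between 13.97 and 15.3 CPM.

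Lost changes were 700 falls and 494 rises. For the lost falls the median level went from 12.9, 12.1 and 12.7 CPM in dividing buds to 6.19, 6.57 and 6.35 CPM in expanding buds of C. grandiflora. In C. rubella it stayed between 9.79 and 10.96 CPM at both stages. The C. rubella level was thus below that of C. grandiflora in dividing buds and above it in expanding buds. For the lost rises the C. grandiflora level went from 13.2, 13.1 and 12.9 CPM to 22.7, 21.2 and 23.2 CPM, and the C. rubella level lay between 15.9 and 17.3 CPM at both stages. The median log2 change of lost falls was -0.89 in C. grandiflora and -0.03 in C. rubella, and of lost rises 0.76 and 0.03.

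Gained changes were 433 rises and 167 falls. The median level of gained rises was 6.17, 5.89 and 6.90 CPM in C. grandiflora dividing buds and 5.99, 6.37 and 6.12 CPM in its expanding buds, with overlap between the stages. In C. rubella it was 2.82, 2.28 and 2.77 CPM in dividing buds and 7.09, 7.55 and 6.95 CPM in expanding buds. The rise in C. rubella thus ended close above the C. grandiflora level and began well below it, and 289 of the 433 genes were called lower in C. rubella dividing buds. Gained falls went from 13.1, 12.1 and 12.5 CPM to 7.20, 7.14 and 7.12 CPM in C. rubella. In C. grandiflora these genes went from 7.73, 8.09 and 7.01 CPM to 8.665, 8.80 and 9.24 CPM. Their median log2 change was -0.77 in C. rubella and 0.07 in C. grandiflora, and that of gained rises 1.18 and -0.04.

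Reversed changes rose in C. rubella and fell in C. grandiflora in 208 genes, and did the opposite in 94. In the 208 genes the median level fell in C. grandiflora from 10.04, 9.51 and 10.7 CPM to 5.50, 6.35 and 5.72 CPM. In C. rubella it rose from 4.07, 3.85 and 4.35 CPM to 6.44, 6.63 and 6.35 CPM. The largest gap between the species was in dividing buds, where 157 of the genes were called lower in C. rubella and 10 higher. In the 94 genes the level rose from 6.99, 7.30 and 6.82 CPM to 12.5, 11.1 and 11.7 CPM in C. grandiflora and fell from 12.4, 12.5 and 11.1 CPM to 6.67, 7.46 and 7.17 CPM in C. rubella. The median difference in stage change was 1.47 and -1.25 on the log2 scale, and 151 and 56 genes passed 2-fold.

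The bud stage at which the species differed was read from the direct comparison of C. rubella with C. grandiflora at each stage in the same fit. That comparison called 13830 genes in expanding buds (59.6% of those tested) and 11982 in dividing buds (51.7%). Of the 5330 genes with a difference in stage change, 1838 differed between the species in expanding buds alone, 1312 in dividing buds alone, 1506 at both stages in the same direction and 621 at both in opposite directions. The remaining 53 were called at neither stage. Among all 23186 genes tested the same counts were 5179, 3331, 8030 and 621, with 6025 at neither stage. The 621 are the same genes in both counts. Of all genes tested, 27.7% were called lower and 24% higher in C. rubella dividing buds, and 29.5% lower and 30.2% higher in its expanding buds. Genes with a positive difference in stage change were lower in C. rubella dividing buds in 1961 of 3373 cases and higher in its expanding buds in 1758. Genes with a negative difference were lower in C. rubella expanding buds in 1438 of 1957 cases and higher in its dividing buds in 741. Among positive differences of at least 2-fold, lower levels in dividing buds were more frequent, with 1232 of 1567 genes, against 607 that were higher in expanding buds. Both readings use the same libraries as the difference itself and describe how it arose.

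**Figure D3:**
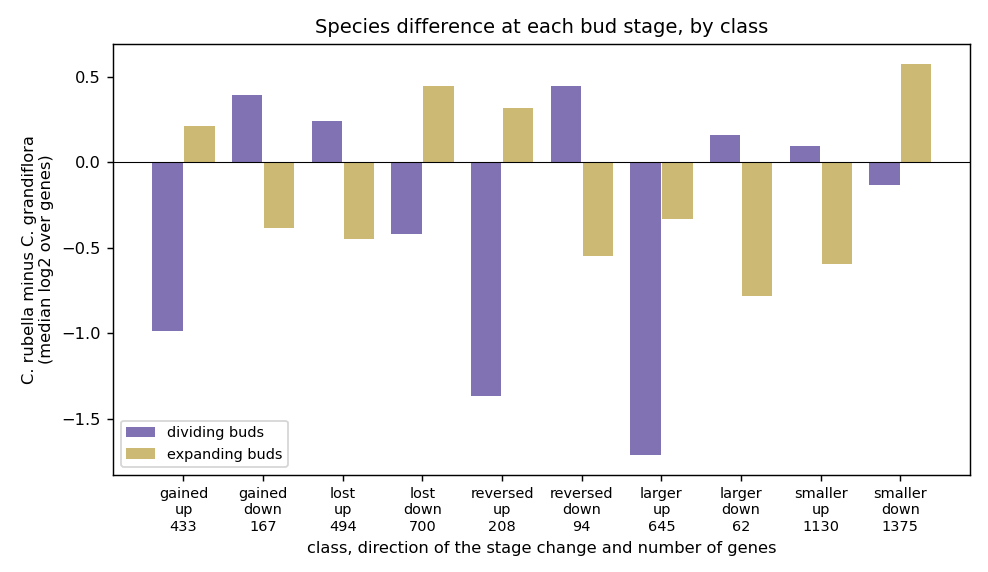
Bars give the median log2 difference between C. rubella and C. grandiflora over the genes of each class, in dividing and in expanding buds, with class, direction of stage change and number of genes below. The longest bars are those of dividing buds for larger rises (-1.71), reversed rises (-1.37) and gained rises (-0.99), while smaller rises (-0.60) and smaller falls (0.58) differ mainly in expanding buds.

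C. orientalis libraries took no part in the contrast and allowed genes to be grouped by a stage change that neither compared species set. Of 2315 genes (9.98% of those tested) called and at least 2-fold higher in dividing than in expanding buds of C. orientalis, 791 (34.2%) had a positive difference in stage change and 87 (3.76%) a negative one, against 14.5% and 8.44% of all genes tested. Their median difference was 0.81, beside 0.08 over all genes, with a median log2 change of -1.84 in C. grandiflora and -1.24 in C. rubella. These genes took 7.31%, 6.80% and 8.01% of reads in the C. grandiflora dividing libraries and 1.57%, 1.79% and 1.57% in the expanding ones. In C. rubella they took 4.63%, 4.34% and 4.67% in dividing buds and 2.00%, 2.02% and 2.01% in expanding buds. By this share every C. rubella library lay below every C. grandiflora library in dividing buds and above it in expanding buds. The C. orientalis libraries, which chose the genes, lay between the species in dividing buds, at 5.18% to 5.52%, and below both in expanding buds, at 1.35% to 1.52%. A share of reads weighs abundant genes most, and the median level over the genes did not cross. In expanding buds it was 0.726 to 0.757 CPM in C. rubella and 0.778 to 0.884 CPM in C. grandiflora. The median log2 difference between C. rubella and C. grandiflora was -0.94 in dividing buds, with 1280 genes called lower and 401 higher. In expanding buds it was 0.11, with 544 lower and 654 higher, and RLE scaling gave a median of 0.035 there.

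Genes at least 2-fold higher in expanding buds of C. orientalis, 3310 in number (14.3% of those tested), were divided more evenly. Among them 442 (13.4%) had a positive and 611 (18.5%) a negative difference in stage change, with a median of -0.10. Their median log2 change was 2.51 in C. grandiflora and 2.38 in C. rubella. They took 23.1%, 22.1% and 23.6% of reads in C. grandiflora expanding buds but 14.7%, 15.2% and 14.7% in C. rubella. In dividing buds the shares were 3.96%, 3.89% and 3.87% against 3.41%, 3.41% and 3.38%. The C. rubella share was thus smaller at both stages. In expanding buds 1951 of these genes were called lower in C. rubella and 454 higher, and in dividing buds 1101 were lower and 464 higher. Of all genes tested, 29.5% were called lower and 30.2% higher in expanding buds, and 27.7% lower and 24% higher in dividing buds. The 17561 other genes had a positive difference in 12.2% and a negative one in 7.17%, with a median of 0.05. These counts, 2140 and 1259, moved to 1835 and 1515 with RLE scaling and to 2186 and 1833 with DESeq2.

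Finer steps of the C. orientalis change showed the same asymmetry. In the 570 genes at least 16-fold lower in expanding buds of C. orientalis by the fitted change, the median log2 change was -4.95 in C. grandiflora and -3.24 in C. rubella. Of these, 191 (33.5%) had a positive and 10 (1.75%) a negative difference, against 14.5% and 8.44% of all genes tested. In genes 2- to 4-fold lower there the medians were -1.14 and -0.74. In the 1091 genes at least 16-fold higher the medians were 6.29 in C. grandiflora and 6.78 in C. rubella, with 115 positive (10.5%) and 116 negative (10.6%) differences. Between these ends, genes 2- to 4-fold higher had medians of 1.42 and 1.27. By these medians falls were smaller in C. rubella at every step of size shown, and rises differed in both directions. Calls were about as frequent among rises as among falls. They made up 33.5% of genes 2- to 4-fold higher and 32.7% of genes 2- to 4-fold lower, against 23% of all genes tested.

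**Figure D4:**
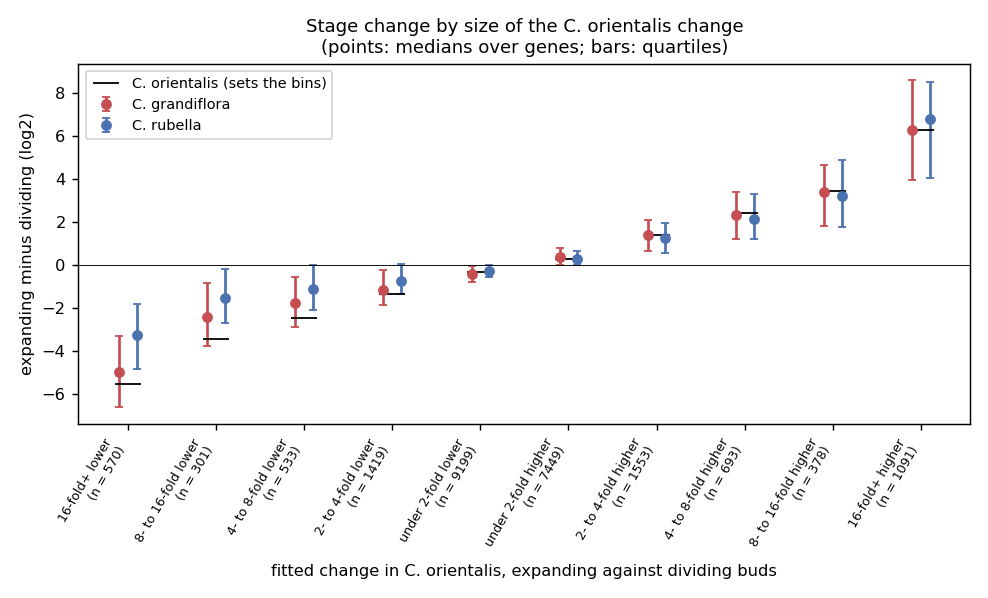
Genes are binned by the fitted change from dividing to expanding buds in C. orientalis (horizontal axis, with the number of genes), and the vertical axis gives that change on the log2 scale in C. grandiflora (red) and C. rubella (blue) as medians with quartile bars. Black dashes mark the C. orientalis medians; on the falling side the C. rubella medians lie nearer 0 than those of C. grandiflora, at -3.24 against -4.95 in the leftmost bin.

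Seedling patterns of C. orientalis, also outside the contrast, gave further groups of genes. Of 3704 genes at least 2-fold higher in its seedlings than in both bud stages, 399 (10.8%) had a positive and 244 (6.59%) a negative difference in stage change, below the share over all genes in both directions. Of 1513 genes at least 2-fold higher in both bud stages than in seedlings, and outside both groups above, 388 (25.6%) were positive and 124 (8.2%) negative. The positive share was above the 14.5% of all genes tested, and the negative share was near their 8.44%. In all, 33.8% of this group was called, against 31.8% of the 3310 genes higher in expanding buds of C. orientalis and 23% of all genes. In the seedlings themselves the direct comparison of C. rubella with C. grandiflora called 43.1% of all genes tested. Among the 5330 genes with a difference in stage change it called 44.2%, with 48.7% of gained, 47.8% of lost, 52.3% of reversed, 42.7% of larger and 40.9% of smaller changes. Genes whose bud-stage change differed were thus called in seedlings about as often as genes in general.

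C. orientalis's own stage change was also compared by class. It was nearer to that of C. rubella than to that of C. grandiflora in 57.1% of all genes tested. The share was 75.3% in the smaller class and 60.5% in the lost class. In the larger class it was 21.9%, in the gained class 34.2% and in the reversed class 41.7%. In the 1375 smaller falls C. orientalis had a called fall in 1269 genes, with a median log2 change of -0.79, where 30.3% of all genes tested had a called fall and 28.7% a called rise in that species. In the 645 larger rises it had a called rise in 454 genes and a called fall in 62, with a median of 1.20, nearer to 1.55 in C. grandiflora than to 3.26 in C. rubella. The 208 genes that rose in C. rubella and fell in C. grandiflora were called higher in C. orientalis expanding buds in 38 cases, lower in 72 and not called in 98. Classes were chosen for a gap between C. rubella and C. grandiflora, so these shares describe where the third species lay and were not tested.

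Among single genes, 1005 met the rule for naming: a called difference of at least 2-fold, a group mean of at least 10 CPM and no overlap between the 9 library differences of each species. Of these, 655 were positive and 350 negative. The 2 largest in each direction each had a group with almost no reads, so that their fitted differences depend on the handling of near-zero counts, and the counts are given beside them. No function can be stated for these identifiers.

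Carubv10009838m.g had almost no reads in C. rubella dividing buds and was present in the other bud groups. It stood at 0, 0 and 0.0499 CPM in the C. rubella dividing libraries and at 6.04, 5.13 and 4.68 CPM in the expanding ones, 2 against 578 counts in all. In C. grandiflora it stood at 12.8, 13.5 and 15.01 CPM and at 19.3, 16.5 and 19.9 CPM. Expanding buds were 255-fold higher in C. rubella (95% exact interval 70.3 to 2110, counting error only) and 1.36-fold higher in C. grandiflora. The difference in stage change was 7.30 (SE 0.47, log2; adjusted p = 1.09e-10, edgeR's quasi-likelihood test). In seedlings it was at 0 to 0.0971 CPM in C. rubella and 5.84 to 7.79 CPM in C. grandiflora, so that C. rubella expanding buds were the only C. rubella group with more than 3 counts.

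Carubv10011416m.g had bud reads only at the dividing stage in C. grandiflora and C. orientalis and also some at the expanding stage in C. rubella. Its level in dividing buds was 27.9, 19.5 and 27.9 CPM in C. grandiflora and 10.5, 6.88 and 11.4 CPM in C. rubella. In expanding buds it had no count in any C. grandiflora library and 0, 17 and 3 counts in the C. rubella libraries. Dividing buds were at least 757-fold higher in C. grandiflora, taking 3 counts over the group as the floor, and 54.7-fold higher in C. rubella (95% exact interval 35.2 to 90, counting error only). The fitted difference was 6.81 (SE 1.76, log2; edgeR's quasi-likelihood adjusted p = 0.0103). It rested on 1 library, since without the second C. rubella expanding library the adjusted p was 0.109.

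Carubv10025640m.g had almost no reads in C. grandiflora dividing buds and was nearly even between the bud stages of C. rubella. It stood at 0, 0.0213 and 0 CPM in C. grandiflora dividing buds and at 35.02, 40.4 and 31.6 CPM in the expanding ones, 1 against 3267 counts. In C. rubella it stood at 32.4, 33.4 and 29.7 CPM in dividing and 38.7, 38.7 and 40.3 CPM in expanding buds. Expanding buds were 4490-fold higher in C. grandiflora (95% exact interval 805 to 177000, counting error only) and 1.24-fold higher in C. rubella. The difference in stage change was -11.20 (SE 0.33, log2; edgeR's quasi-likelihood adjusted p = 2.87e-17). In C. grandiflora seedlings it was at 0 to 0.106 CPM, against 31.02 to 38.9 CPM in C. rubella and 40.99 to 51.99 CPM in C. orientalis. The levels of C. grandiflora and C. rubella thus met in expanding buds and were far apart in dividing buds and seedlings.

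Carubv10006368m.g was high in expanding buds of C. grandiflora and close to 0 in every C. rubella library. Its C. grandiflora levels were 77.4, 92.6 and 99.7 CPM in expanding buds and 0.0244, 0 and 0 CPM in dividing buds. C. rubella had 1 count in each expanding library and 1 count over its dividing libraries, which gives no fold. In C. orientalis it stood at 9.51, 8.32 and 7.88 CPM in expanding buds and had 2 counts over the dividing libraries. The fitted difference of -11.73 (SE 2.95, log2; edgeR's quasi-likelihood adjusted p = 0.00516) lost its call without the second C. rubella dividing library (-9.97, adjusted p = 1). A gene this low at both stages in C. rubella cannot be told apart from one whose reads were not assigned there.

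**Figure D5:**
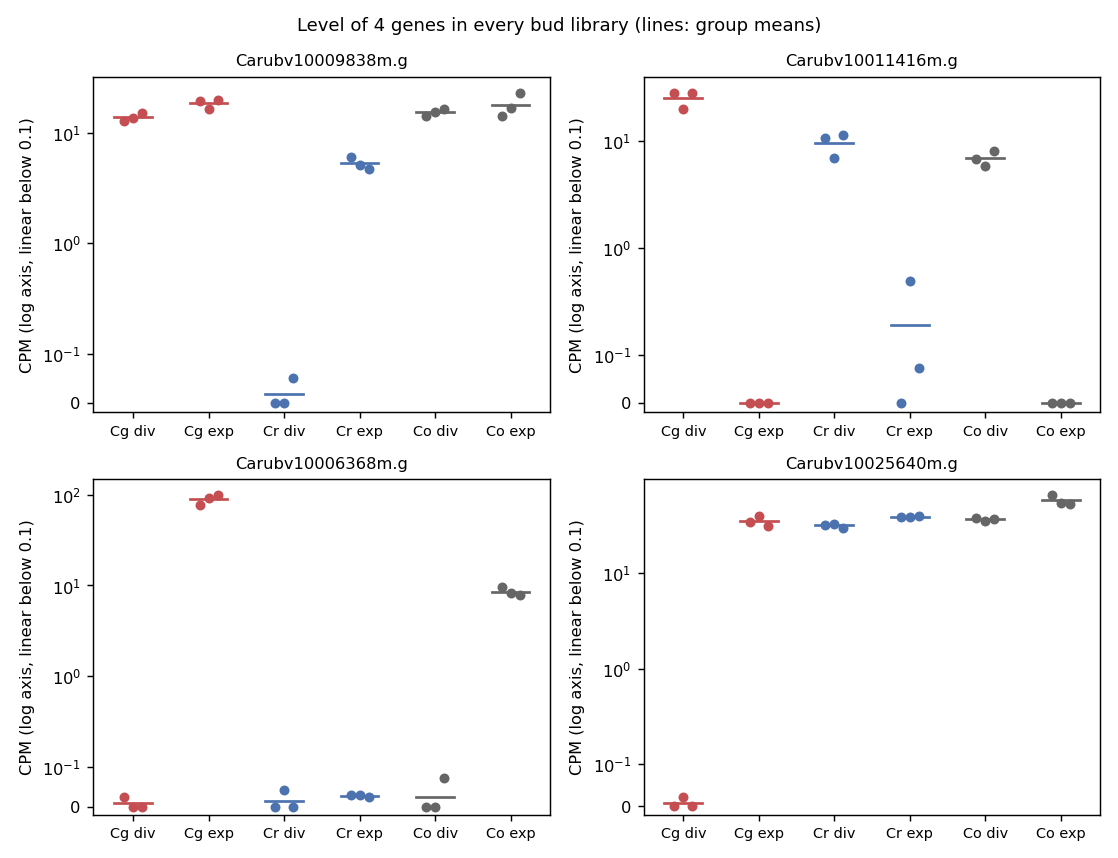
Points give the level of 4 genes in each bud library (CPM, log axis, linear below 0.1) and lines the group means, for C. grandiflora (Cg), C. rubella (Cr) and C. orientalis (Co) in dividing (div) and expanding (exp) buds. In each panel a group of C. rubella or C. grandiflora lies at or near 0, such as C. rubella dividing buds at 0 to 0.0499 CPM for Carubv10009838m.g.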

How the data were processed

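Raw counts of reads per gene, 1 table per library, were deposited after the authors trimmed reads with Trimmomatic and counted them with HTSeq, per the submitters' processing notes. Total RNA, TruSeq libraries and single reads of 50 cycles on a HiSeq2000 are named in the labels' protocols. No source used here gives the aligner, genome build, annotation, strand setting or versions. Reads of genes that overlap on opposite strands may therefore be mixed, and copies of nearly the same sequence can share or lose reads. The 5 summary rows that name no gene were dropped from library sizes and tests.

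Counts were analysed with edgeR 4.0.16 in R 4.3.3: filterByExpr, TMM scaling, 1 fit of 9 group means over all 27 libraries (18 residual degrees of freedom), quasi-likelihood F-tests and Benjamini-Hochberg adjustment over 23186 genes. Standard errors are the log2 value divided by the square root of F. Levels are CPM with TMM factors. Genes were named by size: called, at least 2-fold, a group mean of at least 10 CPM, no overlap of library differences on log2 CPM (prior count 2), the 2 largest in each direction. Groups and classes were chosen with earlier results of these data known, and the seedling groups and finer steps of C. orientalis change after seeing these. Replicate pairs differed beyond sampling noise (chi-square per degree of freedom of 5.14 to 17.9). Alternatives were RLE scaling, no filter, DESeq2 1.42.0, the 12 bud libraries alone, a replicate block, a 2-fold rule for classes and leaving out each of the 12 libraries.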

Additional observations from a re-analysis of the deposited data

Results flagged for a closer look

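For 4 single genes the bud-stage change of C. rubella differed from that of C. grandiflora by a test of the difference itself. The log2 difference in stage change was 7.30 for Carubv10009838m.g, 6.81 for Carubv10011416m.g, -11.73 for Carubv10006368m.g and -11.20 for Carubv10025640m.g. Each has a group with few or no counts in at least 1 species. The call of Carubv10011416m.g rested on 17 counts in 1 C. rubella expanding library and that of Carubv10006368m.g on 1 count in a C. rubella dividing library, while those of Carubv10009838m.g and Carubv10025640m.g passed with any 1 of the 12 bud libraries left out (adjusted p at most 3.08e-09 and 7.63e-15, edgeR's quasi-likelihood test).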

How the results depend on the processing

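The 4 named genes kept their sign under each alternative, and positive differences outnumbered negative ones, making up 56.5% (DESeq2) to 67.4% (12 bud libraries alone) of calls against 63.3% as reported. Other balances turned. Genes higher and lower in C. rubella expanding buds numbered 6998 and 6832, against 6147 and 7713 with RLE scaling, 6257 and 7822 with DESeq2, and 6504 and 6603 without the second C. grandiflora expanding library. Genes rising and falling in C. grandiflora numbered 8326 and 8376, against 8429 and 8252 with RLE scaling, 8506 and 8323 with DESeq2, and 8014 and 7961 or 8170 and 8147 without its first or second expanding library. Smaller rises outnumbered smaller falls with RLE scaling (1242 and 1205) and DESeq2 (1462 and 1432), and DESeq2 also gave more lost rises (696) than lost falls (678). With RLE scaling the median difference in stage change was 0.039 over all genes and 0.018 over genes outside the C. orientalis stage groups, and 5 negative genes had a called change in neither species. With DESeq2 these values were 0.036, 0.017 and 17, with 26 such positive genes and 259 gained falls. The 12 bud libraries alone called 4759 positive and 2306 negative differences, with 2253 smaller falls, 112 larger falls, 6 negative genes called in neither species, 3316 positive genes outside the C. orientalis groups and medians of 0.11 over all genes and 0.090 outside those groups. A replicate block in that fit gave 4558 and 2208, with 2154 smaller falls and medians of 0.111 and 0.091. The numbers share no stated origin: 5 of 18 same-numbered pairs correlated over 0.1 (r from -0.285 to 0.307), and 4 of 12 libraries correlated best with their own number. Where a stage change also had to reach 2-fold, 508 rises and 492 falls were smaller, 32 falls larger, 97 falls gained, 40 rises and 18 falls reversed, and 1072 positive and 700 negative genes had such a change in neither species. Leaving out each of the 12 libraries gave 2763 to 3328 positive and 1556 to 1958 negative differences, 7 to 12 positive and 1 to 13 negative genes called in neither species, and a median of 0.050 to 0.059 outside the C. orientalis groups. Causes of these shifts were not tested. Genes without counts in a group were also set to 3 counts, and those with at most 3 counts at both stages were left out. This moved no median stage change, or difference in it, by more than 0.0524 in the classes, both C. orientalis stage groups or all genes tested. The finer steps of C. orientalis change, the seedling groups, the other genes and the species differences at each stage were not bounded in this way. Depth limits the genes with near-zero groups, whose fitted differences are not bounds.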
